A study of Mus musculus with 6 samples.

Results

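The genes described are 9 B cell genes, Ms4a1, Cd79a, Cd79b, Cd22, Pax5, Ebf1, Blk, Fcrla and Pou2af1, measured in CD45+CD11b+ cells sorted from mouse pancreas. They were chosen by symbol, with earlier results of these data known. Each symbol was matched to an Ensembl gene ID of the count table through GENCODE vM21. All 9 were found among the 21780 rows of the table, and all 9 passed the filter on low counts that left 14429 protein-coding genes for testing. WGP (whole glucan particles) is a particulate beta-glucan from the wall of the yeast Saccharomyces cerevisiae, and PBS is the saline control. Wild-type C57BL/6 mice, male and female and 6 to 8 weeks old, were injected once into the peritoneal cavity, with PBS in the control group and with WGP (1 mg) in the treated group. Pancreas tissue was collected on day 7. It was digested with enzymes, and live cells that stained for CD45, carried by nearly all leukocytes, and for CD11b, carried mainly by myeloid cells, were sorted. RNA was then sequenced as 3 PBS and 3 WGP libraries, and the comparison asks how the sorted cells of treated mice differ from those of control mice. The study states that each sample was an independent animal, and the sources used here do not say which libraries came from males and which from females.

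B cells recognise antigen through a membrane antibody that signals through the paired chains CD79A and CD79B. CD20, the product of Ms4a1, is a channel-like surface protein of mature B cells, and CD22 is a sialic acid-binding receptor that dampens the signal of the antigen receptor. BLK is a Src-family kinase that acts just below that receptor, and FCRLA is an Fc receptor-like protein kept inside the B cell. EBF1 and PAX5 are the transcription factors that commit a cell to the B lineage, and POU2AF1 (OCA-B) is a coactivator that works with octamer-binding factors on B cell promoters. CD11b is not a defining marker of B cells as a whole, although the B-1 cells of the body cavities can carry it, as can activated B cells.

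In GRCm38 coordinates, Ms4a1 (ENSMUSG00000024673) lies at chr19:11249675-11266241 on the minus strand, Cd79a (ENSMUSG00000003379) at chr7:24897381-24902197 on the plus strand and Cd79b (ENSMUSG00000040592) at chr11:106311341-106314762 on the minus strand. Cd22 (ENSMUSG00000030577) lies at chr7:30865402-30880342 on the minus strand, Pax5 (ENSMUSG00000014030) at chr4:44524757-44710487 on the minus strand and Ebf1 (ENSMUSG00000057098) at chr11:44617317-45008091 on the plus strand. Blk (ENSMUSG00000014453) is at chr14:63372836-63417037 and Fcrla (ENSMUSG00000038421) at chr1:170917576-170927583, both on the minus strand, and Pou2af1 (ENSMUSG00000032053) is at chr9:51213708-51240080 on the plus strand. Counts were made over exons. Cd22 shares 479 exonic bases with the opposite-strand gene Gm29439, and Pax5 shares 761 with Gm12462 and 5730488B01Rik. The strand setting of the counting is not given in the sources used here, so reads in those stretches cannot be assigned with certainty. The other 7 genes share no exonic base with another gene.

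RefSeq windows for GRCm38.p6 covered the promoters of 6 of the 9 genes, Cd79a, Cd22, Pax5, Ebf1, Fcrla and Pou2af1, and had no entry for Ms4a1, Cd79b and Blk. The 250 bases before each start were searched on both strands for the octamer ATGCAAAT, which POU2AF1 acts through, for CCCNNGGG, the core that EBF factors bind, and for GAGGAA, a core of sites of the factor PU.1. The octamer was in none of the windows of the 6 genes and in 1.60% of all 32851 windows, CCCNNGGG was in that of Cd22 and in 11.8% of all, and GAGGAA was in those of Cd79a, of Fcrla and of 1 of the 2 starts of Ebf1 and in 23.3% of all. The windows of Cd79a, which had the largest fall among the 6 genes, and of Cd22, which had the smallest estimate, are shown 5′ to 3′ with the matching bases in capitals (TTCCTC, the reverse complement of GAGGAA, in Cd79a, and a CCCNNGGG match in Cd22). That of Cd79a is chr7:24897247-24897496 on the plus strand, and that of Cd22 is chr7:30879029-30879278 on the minus strand.
Cd79a: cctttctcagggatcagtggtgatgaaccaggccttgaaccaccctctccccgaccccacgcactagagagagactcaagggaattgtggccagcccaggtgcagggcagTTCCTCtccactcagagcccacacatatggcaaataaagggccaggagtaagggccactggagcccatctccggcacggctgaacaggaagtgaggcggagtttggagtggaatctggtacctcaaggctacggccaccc
Cd22: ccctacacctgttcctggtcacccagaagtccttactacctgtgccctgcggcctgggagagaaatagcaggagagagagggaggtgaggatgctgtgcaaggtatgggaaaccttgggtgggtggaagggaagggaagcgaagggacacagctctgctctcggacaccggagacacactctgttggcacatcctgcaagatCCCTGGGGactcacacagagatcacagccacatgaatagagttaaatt
The match in Cd79a starts 140 bases before the RefSeq start of its window, and that in Cd22 48 bases before the RefSeq start of its own. These starts are not always those of the gene coordinates given above. The windows of Cd22 and Ebf1 lie inside those coordinates, and that of Cd79a lies partly inside them. These letters are a description of the sequence and say nothing of binding in these cells.

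The libraries held 35334645 to 43341834 counts and 12147 to 12860 genes with at least 1 count. The markers of the sort were present in every library. Ptprc, which encodes CD45, stood at 949 to 1747 CPM (counts per 1e6 counts, after scaling by TMM, the trimmed mean of M values) and Itgam, which encodes CD11b, at 189 to 417. PBS replicate 1 stood apart. Its B cell gene levels were several times those of PBS replicates 2 and 3, its myeloid marker sum was the lowest of the 6 libraries, and it had 0 counts over 4 Y-linked genes, where PBS replicates 2 and 3 had 8972 and 10063. The WGP libraries had 0, 0 and 1 Y-linked counts. Results for the 9 genes are therefore given with and without PBS replicate 1. So are those of other genes named from the lists where its removal changed a call or moved a called value by over 1.5 times. Genes on no list are not given without it. Results are also given from a fit with a covariate that marks libraries with Y-linked counts. In that fit PBS replicate 1 is the only PBS library set against the WGP libraries and is assumed to vary like the other libraries. Whether PBS replicate 1 differed from the other PBS libraries by what its lack of Y-linked counts marks or in some other way cannot be told apart. The fit without PBS replicate 1 sets PBS libraries with Y-linked counts against WGP libraries with 0, 0 and 1. In that fit, treatment and what those counts mark cannot be told apart. In the fit of all 6 libraries they are partly confounded.

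Together the 9 genes took 0.331%, 0.0773% and 0.0466% of all counts in PBS replicates 1, 2 and 3, and 0.0211%, 0.0262% and 0.0150% in WGP replicates 1, 2 and 3. Their summed level was 3041, 763 and 462 CPM in the PBS libraries and 219, 273 and 154 CPM in the WGP libraries, so that every WGP library lay below every PBS library. The means were 1422 ± 1410 CPM in PBS and 216 ± 59.6 CPM in WGP (SD, n = 3 each), a ratio of 6.60. PBS replicate 1 alone was 14.1 times the WGP mean, and the mean of PBS replicates 2 and 3 was 2.84 times it. Within the PBS group, replicate 1 was 3.99 times replicate 2 and 6.58 times replicate 3. In sorted bulk cells, fewer cells of a type and less RNA per cell cannot be told apart.

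Of the 9 genes, 8 were called lower in WGP and none higher, by edgeR's quasi-likelihood test. A call needed a p of 0.05 or less after Benjamini-Hochberg adjustment over all 14429 genes and a log2 fold change of 1 or more in size. Over all genes tested, 4.96% were called lower and 4.53% higher. The WGP values lay below every PBS value in 8 of the 9, against 16.1% of all genes. The median log2 fold change of the 9 was -2.78, and that of all genes was -0.05. Without PBS replicate 1, 7 of the 9 were called lower (5.06% of all genes) and their median was -1.63. With the Y-linked covariate all 9 were called lower (4.69% of all genes), with a median of -3.85, but that fit sets PBS replicate 1, the highest library for each of the 9, alone against WGP, so its larger estimates follow from that library's values and add no separate support. By adjusted p alone the count stayed at 8 (6.81% of all genes were lower), and DESeq2 also called 8 lower (6.72% of all genes). limma-voom called 4 of the 9, leaving out Ebf1, Blk, Fcrla and Pou2af1 besides Cd22, where 4.78% of all genes were called lower.

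**Figure D1:**
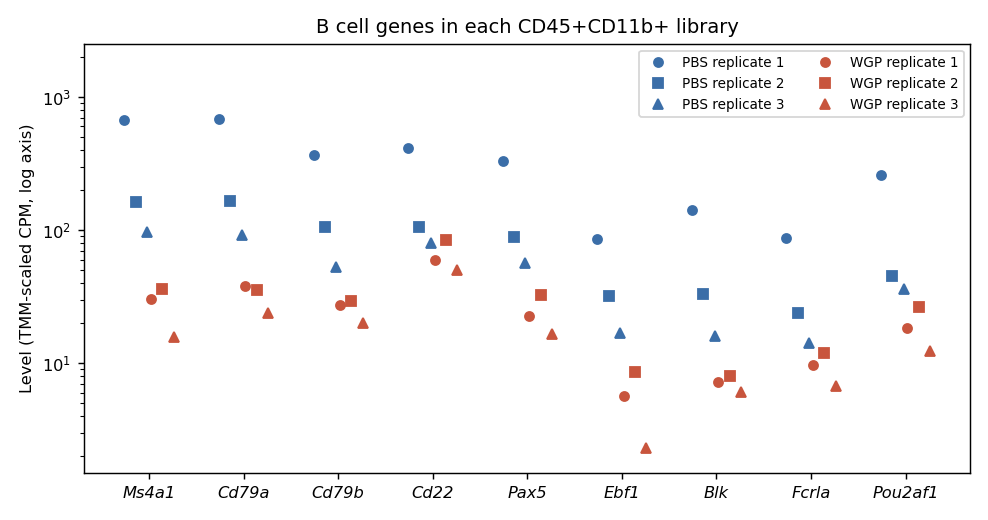
Level of each of the 9 B cell genes (horizontal axis) in TMM-scaled CPM (vertical log axis) in each library, blue for PBS and red for WGP, with a marker shape for each replicate number. PBS replicate 1 is the highest library for every gene, and the groups overlap only for Cd22.

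Of the chains of the antigen receptor, Cd79a had levels of 686, 167 and 92.6 CPM in PBS replicates 1, 2 and 3 and of 37.7, 35.4 and 24 CPM in WGP replicates 1, 2 and 3. All WGP libraries were below all PBS libraries, and the lowest PBS library was 2.45 times the highest WGP library. Cd79a fell 9.73-fold (log2 fold change -3.28, SE 0.63, edgeR adjusted p = 0.00559), and without PBS replicate 1 the log2 fold change was -2.0 (SE 0.27, edgeR adjusted p = 0.000763). Cd79b, its partner chain, had 369, 105 and 52.8 CPM in PBS and 27.2, 29.4 and 20.1 CPM in WGP. It too was lower in each WGP library than in any PBS library, 6.86-fold on the fitted scale (log2 fold change -2.78, SE 0.58, edgeR adjusted p = 0.00916). The Cd79b estimate without PBS replicate 1 was -1.63 (SE 0.29, edgeR adjusted p = 0.00380).

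Among the surface proteins, Ms4a1 (CD20) had 668, 162 and 97.4 CPM in the PBS libraries and 30.2, 36 and 15.6 CPM in the WGP libraries. Its groups were the furthest apart of the 9 genes, with the lowest PBS library at 2.71 times the highest WGP library. Ms4a1 fell 11.3-fold (log2 fold change -3.50, SE 0.65, 95% interval -4.95 to -2.06, edgeR adjusted p = 0.00485), and -2.25 (SE 0.33, edgeR adjusted p = 0.00126) was the estimate without PBS replicate 1. Cd22, the inhibitory receptor, was the 1 member not called. Its levels were 413, 106 and 80.1 CPM in PBS and 60.0, 84.9 and 50.2 CPM in WGP, and WGP replicate 2 lay above PBS replicate 3. The Cd22 log2 fold change was -1.62 (SE 0.52, 95% interval -2.79 to -0.45, edgeR adjusted p = 0.0694). Leaving out PBS replicate 1 gave -0.52 for Cd22 (SE 0.23, edgeR adjusted p = 0.189), and the Y-linked covariate gave -2.67 (edgeR adjusted p = 0.000338). Cd22 was also called without PBS replicate 3 (edgeR adjusted p = 0.0198).

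Blk, the kinase, had 142, 33.3 and 16.1 CPM in PBS and 7.27, 7.98 and 6.06 CPM in WGP. Among the PBS libraries Blk had the widest span of the 9 genes, replicate 1 being 8.85 times replicate 3. Blk fell 8.98-fold (log2 fold change -3.17, SE 0.67, edgeR adjusted p = 0.00939) and its estimate without PBS replicate 1 was -1.80 (SE 0.37, edgeR adjusted p = 0.0083). Fcrla, the intracellular Fc receptor-like protein, had 87.9, 23.9 and 14.1 CPM in PBS and 9.66, 11.9 and 6.74 CPM in WGP. The groups did not overlap, but the lowest PBS library was only 1.18 times the highest WGP library. Fcrla fell 4.44-fold (log2 fold change -2.15, SE 0.58, edgeR adjusted p = 0.0332), and without PBS replicate 1 it was no longer called (-1.01, SE 0.37, edgeR adjusted p = 0.109). Nor was Fcrla called when any 1 WGP library was left out (edgeR adjusted p = 0.0532 to 0.120).

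Of the transcriptional regulators, Pax5 had 331, 88.1 and 56.2 CPM in PBS and 22.8, 32.6 and 16.7 CPM in WGP. Every WGP library lay below every PBS library for Pax5, which fell 6.59-fold (log2 fold change -2.72, SE 0.58, edgeR adjusted p = 0.00976), or by 1.59 on the log2 scale without PBS replicate 1 (SE 0.29, edgeR adjusted p = 0.0048). Ebf1, which acts upstream of Pax5 in the B lineage, had 85.5, 31.9 and 16.8 CPM in PBS and 5.67, 8.56 and 2.32 CPM in WGP. The lowest value, in WGP replicate 3, rested on 95 counts. Ebf1 fell 8.10-fold (log2 fold change -3.02, SE 0.62, edgeR adjusted p = 0.00827), and its estimate without PBS replicate 1 was -2.14 (SE 0.52, edgeR adjusted p = 0.0195). Pou2af1, the coactivator, had 258, 45.5 and 36.3 CPM in PBS and 18.3, 26.6 and 12.4 CPM in WGP, again with no overlap. PBS replicate 1 was 5.67 times replicate 2 for Pou2af1, the largest such ratio of the 9 genes. Pou2af1 fell 5.92-fold (log2 fold change -2.57, SE 0.67, edgeR adjusted p = 0.0275), and without PBS replicate 1 its estimate was -1.10 (SE 0.31, edgeR adjusted p = 0.0403). Its call was lost without WGP replicate 1 (edgeR adjusted p = 0.0961) and without WGP replicate 3 (edgeR adjusted p = 0.106).

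**Figure D2:**
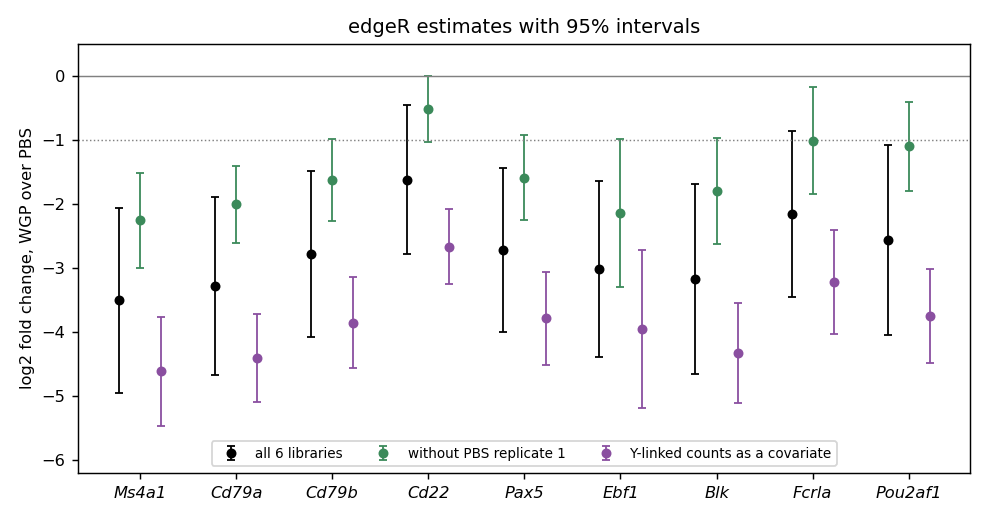
Log2 fold change of WGP over PBS (vertical axis) of each B cell gene from edgeR, with 95% intervals, from all 6 libraries (black), without PBS replicate 1 (green) and with a covariate for Y-linked counts (purple). The dotted line marks the fold threshold at -1, and the estimates run from -3.50 for Ms4a1 to -1.62 for Cd22 with all libraries and from -2.25 to -0.52 without PBS replicate 1.

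For counting precision, the most frequent count between 15 and 100 was 41, 31 and 27 in the PBS libraries and 18, 32 and 29 in the WGP libraries. Where several reads come from 1 molecule, a read count overstates the precision of a value. The lowest value of the 9 genes, Ebf1 in WGP replicate 3, was 3.28 times that most frequent count, Blk was 8.55 to 14.9 times it in the WGP libraries, and Cd79a in PBS replicate 1 was 643 times it. With each library's counts divided by its most frequent low count, an alternative added after the data were seen, all 9 genes were called lower (6.21% of all genes), Cd22 among them (log2 fold change -1.58, edgeR adjusted p = 0.0170). The SE of Cd22 was 0.44 in that fit, against 0.52 with undivided counts, and 1603 genes were called in all, against 1369. The division was thus no stricter a test.

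The 9 genes did not move in equal proportion. Of their summed counts, Cd22 took 13.6% to 17.3% in the PBS libraries and 27.4% to 32.6% in the WGP libraries, and was the member with the largest share in each WGP library. Ms4a1 took 21.1% to 22% in PBS and 10.1% to 13.8% in WGP, and Cd79a 20.02% to 22.5% in PBS and 12.9% to 17.2% in WGP. The shares of Fcrla were 2.89% to 3.13% in PBS and 4.37% to 4.41% in WGP. For these 4 genes the groups did not overlap. In PBS replicate 1, whose total was the highest, the shares of Ms4a1, Cd79a, Cd22 and Fcrla were 22%, 22.5%, 13.6% and 2.89%. The shares of Cd79b (11.4% to 13.8% in PBS, 10.8% to 13.0% in WGP), Pax5 (10.9% to 12.2%, 10.4% to 11.9%), Pou2af1 (5.97% to 8.48%, 8.06% to 9.74%), Blk (3.47% to 4.67%, 2.92% to 3.93%) and Ebf1 (2.81% to 4.18%, 1.5% to 3.13%) overlapped between the groups. With 3 libraries against 3, a two-sided exact permutation test cannot go below p = 0.1, so that test cannot reach 0.05 for the shares, and no other test of them was run. Shares of 1 sum are not independent of each other.

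**Figure D3:**
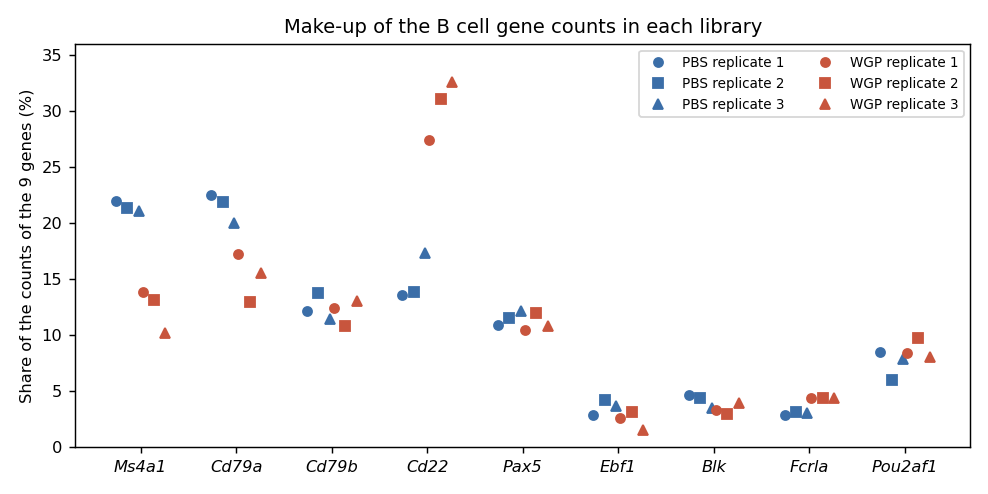
Share of each gene in the summed counts of the 9 B cell genes (vertical axis, percent) in each library, blue for PBS and red for WGP. Cd22 takes 13.6% to 17.3% in PBS and 27.4% to 32.6% in WGP, while Ms4a1 and Cd79a take smaller shares in every WGP library than in any PBS library.

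Levels of different genes were compared per kilobase of exon. On that scale Cd79a was the highest and Cd79b the next in each of the 6 libraries, and Ebf1 was the lowest in each. Cd79a stood at 471, 114 and 63.5 CPM per kilobase in PBS and at 25.9, 24.3 and 16.5 in WGP, which placed it 57th to 606th of 14429 genes in PBS and 1925th to 2901st in WGP. Cd79b stood at 258, 73.3 and 36.9 CPM per kilobase in PBS and at 19.0, 20.6 and 14.1 in WGP. Cd22 was at position 3 to 5 of the 9 in PBS, at 15.9 to 81.9 CPM per kilobase, and at position 3 in each WGP library, at 9.96 to 16.8. Ms4a1 was at position 3 or 4 in PBS, at 15.7 to 108 CPM per kilobase, and at position 6 in each WGP library, at 2.53 to 5.82. Ebf1 stood at 1.73 to 8.76 CPM per kilobase in PBS and 0.24 to 0.88 in WGP. The PBS ranges of neighbours in this order overlapped, since PBS replicate 1 was 2.68 to 5.67 times PBS replicate 2 for every member.

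Of 14 other receptors and surface proteins of B cells 8 were called lower and 0 higher (4.53% of all genes were called higher), with a median log2 fold change of -2.11. They included Cd37, a tetraspanin (log2 fold change -1.5, edgeR adjusted p = 0.00456), Cxcr5, the receptor that leads B cells into follicles (-2.50, edgeR adjusted p = 0.00476), Cr2, the complement receptor CD21 (-3.54, edgeR adjusted p = 0.0112), and Ly6d (-3.11, edgeR adjusted p = 0.0120). The WGP values of Cr2 rested on 49, 51 and 14 counts, where the most frequent low counts were 18, 32 and 29. limma-voom called 3 of the 14. Without PBS replicate 1, 6 of the 14 were called lower with a median of -1.20, Cxcr5 was at -1.73, Ly6d at -1.66 and Cr2, no longer called, at -2.70 (edgeR adjusted p = 0.0805). PBS replicate 1 was at least 2 times both other PBS libraries for 9 of the 9 B cell genes and 11 of these 14, against 12.9% of all genes. Of the 9, 8 combined that with no overlap between the groups, against 0.977% of all genes.

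Of 10 other transcription factors of the B lineage 4 were called lower and 1 higher, with a median of -1.18. The 4 were Bach2, a repressor that holds back plasma cell formation (log2 fold change -1.32, edgeR adjusted p = 0.0118), Foxo1 (-1.21, edgeR adjusted p = 0.0261) and, named after their values were seen, Spib (-1.96, edgeR adjusted p = 0.0305) and Ikzf3 (-1.99, edgeR adjusted p = 0.0405). Without PBS replicate 1 the median was -0.74, and Bach2 was the only one of the 4 still called (edgeR adjusted p = 0.0283), with Foxo1 at -0.75, Spib at -0.97 and Ikzf3 at -0.98. Pou2f2, which encodes the octamer-binding partner of POU2AF1, had a log2 fold change of -0.92 (edgeR adjusted p = 0.0141), short of the fold threshold. With the Y-linked covariate the Pou2f2 estimate was -1.25. Ciita, the activator of MHC class II genes in macrophages and dendritic cells as well as B cells, rose (1.57, edgeR adjusted p = 0.000171).

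Of 15 signalling genes that the antigen receptor shares with receptors of other leukocytes 3 were called lower and 0 higher, and the median was 0.15. The 3 were Blnk, an adaptor of the antigen receptor (log2 fold change -2.21, edgeR adjusted p = 5.91e-05), Cd81, a tetraspanin of B cells that many other cells also carry (-2.98, edgeR adjusted p = 9.1e-05), and Bank1, a B cell scaffold (-2.74, edgeR adjusted p = 0.000272). Bank1 was highest in PBS replicate 1, at 239, 142 and 104 CPM in PBS and 26.3, 29.1 and 17 CPM in WGP. Blnk was at 170, 144 and 104 CPM in PBS and 28.5 to 32.0 in WGP, and Cd81 was lower in PBS replicate 1 (364 CPM) than in replicates 2 and 3 (584 and 563 CPM). PBS replicate 1 was at least 2 times both other PBS libraries for 1 of these 15. Vav1 had a log2 fold change of 0.69 (edgeR adjusted p = 0.00601). Among 6 inhibitors of the receptor's signal 1 was called higher and 0 lower, with a median of 0.51. It was Pirb, a receptor of myeloid and B cells (1.54, edgeR adjusted p = 0.00055), while Ptpn6, the phosphatase that CD22 recruits, had 0.74 (edgeR adjusted p = 0.00777), Cd300a 0.72 (edgeR adjusted p = 0.0471) and Fcgr2b 0.31 (edgeR adjusted p = 0.392). With the Y-linked covariate Pirb was at 2.00, Ptpn6 at 0.67, Cd300a at 1.15 and Fcgr2b at 0.83.

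Of 8 plasma cell genes 2 were called lower, Irf4 (log2 fold change -2.78, edgeR adjusted p = 0.00055) and Mzb1, a chaperone for antibody assembly (-3.35, edgeR adjusted p = 0.00493), and 2 higher, Sdc1 (2.74, edgeR adjusted p = 0.00894) and Prdm1 (1.08, edgeR adjusted p = 0.0193). Mzb1 was at -2.23 without PBS replicate 1. With the Y-linked covariate neither Sdc1 (3.09, edgeR adjusted p = 0.065) nor Prdm1 (0.70, edgeR adjusted p = 0.230) was called. Irf4 and Prdm1 are also used by myeloid cells and T cells, and Sdc1 by epithelium. All 4 B-1 cell genes listed were at least 2 times higher in PBS replicate 1 than in both other PBS libraries, and 1 of them was called, Zbtb32 (-3.63, edgeR adjusted p = 0.00797). Without PBS replicate 1 Zbtb32 was at -2.21 and the median of the 4 went from -1.37 to -0.19. The others were Fcrl5 (-1.44, edgeR adjusted p = 0.238), Bhlhe41 (-0.75, edgeR adjusted p = 0.347) and Cd5 (-1.29, edgeR adjusted p = 0.633). With the Y-linked covariate Fcrl5 was at -2.56, Bhlhe41 at -1.45 and Cd5 at -2.40. Cd5 stood at 9.34 CPM in PBS replicate 1 and at 0 to 3.96 CPM elsewhere. Of 5 ligands that draw B cells or keep them alive, none was called by edgeR or DESeq2 and 1 by limma-voom, and 1 had an unadjusted p under 0.05 in edgeR. Tnfsf13b (BAFF) had a log2 fold change of -1.11 (edgeR adjusted p = 0.0901) and was called lower without PBS replicate 1 (-1.34, edgeR adjusted p = 0.0375), Cxcl13 of -1.67 and Cxcl12 of -1.43 (edgeR adjusted p = 0.280 for both) and Tnfsf13 of -0.01 (edgeR adjusted p = 0.995), and Ccl19 had counts in 1 library only.

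MHC class II presentation genes, which B cells share with macrophages and dendritic cells, gave no call among 8 in edgeR or limma-voom and 2 in DESeq2, with 7 at an unadjusted p under 0.05 in edgeR and a median of 0.49. By adjusted p alone 3 were higher (7.54% of all genes were), H2-DMa (log2 fold change 0.87, edgeR adjusted p = 0.00389), H2-Ab1 (0.76, edgeR adjusted p = 0.0150) and H2-Aa (0.63, edgeR adjusted p = 0.0389), and H2-Eb1 had 0.59 (edgeR adjusted p = 0.050002, just over the threshold). H2-Ob and H2-DMb2, which encode chains of class II peptide-loading proteins and were named after their values were seen, ran the other way, at -1.13 (edgeR adjusted p = 0.0528) and -1.26 (edgeR adjusted p = 0.0655), and their groups did not overlap. Without PBS replicate 1 they were at -0.55 and -0.47, and the fit with the Y-linked covariate called these 2 lower and H2-DMa and H2-Ab1 higher. Of 16 close relatives of the 9 genes 14 were tested, Ebf4 and Pax2 having no counts, with 3 called higher, 1 lower and a median of 0.45. The kinase Fgr, a myeloid member of the family of Blk, rose (1.82, edgeR adjusted p = 5.44e-05), as did Src (1.72, edgeR adjusted p = 0.0455), named after its values were seen. Lyn, the Src-family kinase that B cells and myeloid cells share, had 0.46 (edgeR adjusted p = 0.0397). Cd33, a myeloid relative of Cd22, fell (-1.05, edgeR adjusted p = 0.0151). With the Y-linked covariate neither Cd33 (-0.33, edgeR adjusted p = 0.279) nor Src (1.39, edgeR adjusted p = 0.306) was called.

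**Figure D4:**
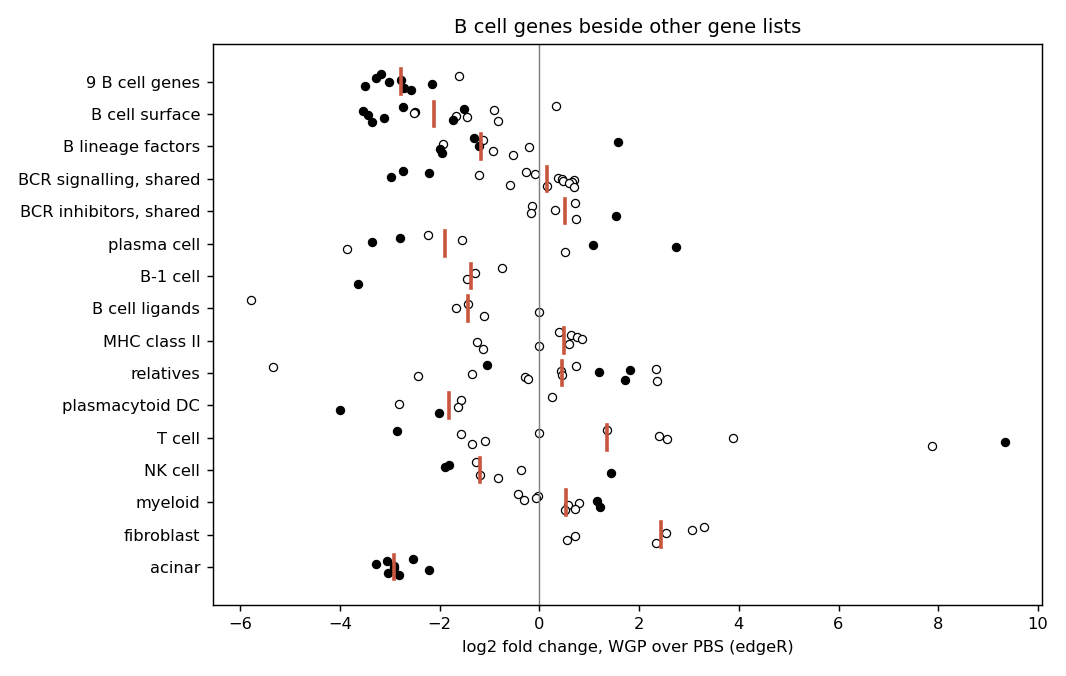
Log2 fold change of WGP over PBS from edgeR (horizontal axis) of every tested gene of the 9 B cell genes and of 15 other gene lists, 1 row a list, with filled points for called genes, open points for others and a red bar at each list's median. The medians are -2.78 for the 9 genes, -2.11 for other B cell surface genes, -2.91 for acinar genes and 0.54 for myeloid genes.

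Markers of other cell types that the sort could hold are given beside these results, and their part in them was not tested. Of 10 myeloid genes 2 were called higher and 0 lower. They were Lyz2 (log2 fold change 1.21, edgeR adjusted p = 0.00351) and Fcgr1 (1.16, edgeR adjusted p = 0.00289), Itgam had 0.79 and Ptprc 0.71, and the list summed to 10047 to 16178 CPM in PBS, lowest in replicate 1, and 22856 to 24129 in WGP. Lyz2 made up much of that sum, at 4933 to 8230 CPM in PBS and 15656 to 16886 in WGP. The 4 genes of the list with negative estimates, named after their values were seen, were Adgre1 (-0.43), Csf1r (-0.31), Cebpa (-0.07) and Cd68 (-0.02), and without PBS replicate 1 Adgre1 was at -0.67 and Csf1r at -0.58. Of 8 acinar cell genes all 8 were called lower, among them Clps (-3.28, edgeR adjusted p = 3.21e-05) and Cpa1 (-2.91, edgeR adjusted p = 0.00179). They summed to 1307 to 4907 CPM in PBS, highest in replicate 2, and 335 to 534 in WGP, and all 8 were also called without PBS replicate 1. Of 6 plasmacytoid dendritic cell genes 2 were called lower, Tcf4 (-2.0, edgeR adjusted p = 2.4e-05) and Siglech (-4.00, edgeR adjusted p = 0.000827). That list summed to 314 to 346 CPM in PBS and 64.0 to 86.8 in WGP, with replicate 1 the lowest of the PBS libraries.

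Of 11 T cell genes 1 was called lower, Cd2, which mouse B cells also carry (log2 fold change -2.86, edgeR adjusted p = 0.00598, and -1.75 without PBS replicate 1), and 1 higher, Cd8a, at 0 CPM in each PBS library and 1.49 to 2.94 in WGP. The list summed to 72.8 to 227 CPM in PBS and 35.2 to 74.1 in WGP, of which Cd2 was the largest part in PBS replicate 1, at 173 CPM. The T cell receptor complex gene Cd3e, named after its values were seen, was at 0, 0.077 and 0.684 CPM in PBS and 1.33, 8.27 and 1.78 in WGP. Lck, likewise named after its values were seen, had a log2 fold change of -1.35 (edgeR adjusted p = 0.246). Of the 11 genes 6 had positive estimates and 5 negative ones. Every WGP library lay below every PBS library for 3 of them (16.1% of all genes) and above for 2 (16% of all genes). Of 7 NK cell genes 2 were called lower, Gzmb (-1.88, edgeR adjusted p = 0.0156) and Gzma (-1.81, edgeR adjusted p = 0.0187, and -1.19 without PBS replicate 1), and 1 higher, Klrk1 (1.44, edgeR adjusted p = 0.00628), and with the Y-linked covariate neither Klrk1 (1.27, edgeR adjusted p = 0.0821) nor Cd8a (edgeR adjusted p = 0.210, its values as above) was called. The NK list summed to 64.1 to 243 CPM in PBS, highest in replicate 1, and 90.3 to 106 in WGP. None of 6 fibroblast genes was called by edgeR, DESeq2 or limma-voom, and 2 had an unadjusted p under 0.05 in edgeR. They had a sum of 83.4 to 175 CPM in PBS and 33.7 to 1817 in WGP, where replicate 2 was high.

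The genes whose levels ran closest to the 9 were found by the root mean square distance, over the 6 libraries, between a gene's log2 CPM minus its own mean and the mean such profile of the 9. Of the 12387 genes with at least 20 counts a library on average, the 10 nearest outside the 9 were Scd1 (distance 0.164), Ly6d (0.193), Rab30 (0.237), Cxcr5 (0.244), Trp53i11 (0.254), Gimap8 (0.281), Chst3 (0.288), Sept1 (0.311), Cd2 (0.311) and Id1 (0.321), where the median over all those genes was 1.53. Among the 9 themselves the distance to their own mean ran from 0.0737 for Pax5 to 0.562 for Cd22. The nearest gene, Scd1, a fatty acid desaturase, had 335, 93.6 and 58.4 CPM in PBS and 20.1, 31.4 and 13.7 CPM in WGP. Ly6d and Cxcr5 were on the list of B cell surface genes and Cd2 on that of T cells, and the other 7 were on no list. The distance rests on 6 libraries, in which PBS replicate 1 sets much of the profile, where the mean profile of the 9 was at 2.73 on the log2 scale, against -1.67 to -0.76 in the WGP libraries.

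**Figure D5:**
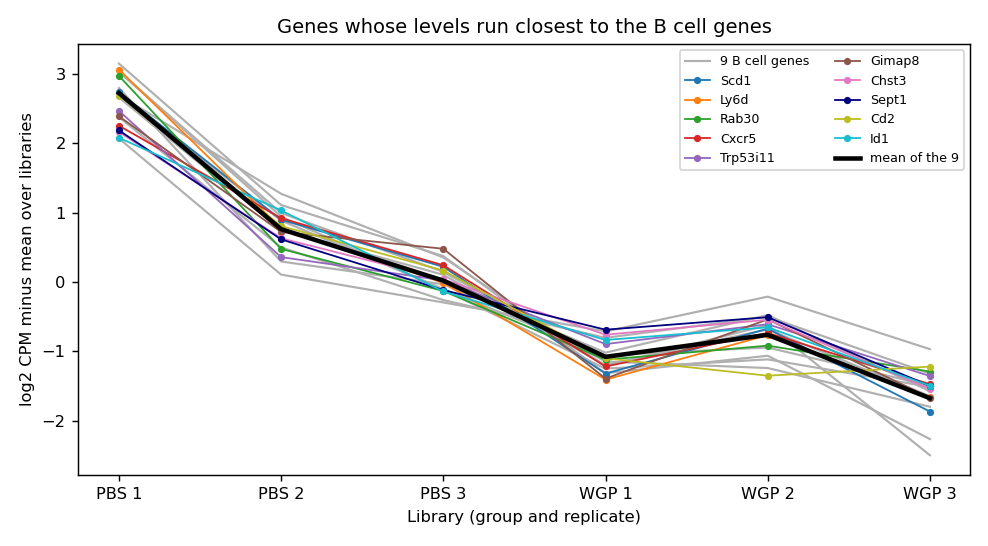
Log2 CPM minus the gene's mean over libraries (vertical axis) in each library (horizontal axis, in arbitrary order within a group) for the 9 B cell genes in light grey, their mean in black and the 10 nearest genes in colour, with lines joining the values of 1 gene. All 10 peak in PBS replicate 1, and all have negative values in the 3 WGP libraries.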

How the data were processed

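RNA from 10 ng inputs of CD45+CD11b+ pancreatic cells was sequenced as single-end 75 base reads in 6 libraries. Alignment by the authors used STAR 2.6 and the mm10 genome, HTSeq 0.10.0 gave counts per Ensembl gene, and the deposited values are raw counts, with no normalization. The annotation release, the strand setting and the handling of duplicate reads are not given in the sources used here.

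Protein-coding genes whose RLE-normalized counts reached 10 when summed over libraries were tested in R 4.3.3 with the quasi-likelihood test of edgeR 4.0.16 after TMM normalization, WGP against PBS, with p-values adjusted over all of them by Benjamini-Hochberg. Standard errors were derived from the F statistic, and intervals are at 95%. The fit was tested on simulated data. Groups were taken from the sample labels. The study states that each sample was an independent animal, and each library was taken as 1 replicate. Totals were 35334645 to 43341834 counts, and precision is lower than these imply if 1 molecule gave several reads.

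The 9 genes and the gene lists were chosen with earlier results of these data known. Genes named besides the 9 are up to 4 of each list with the smallest p (all of a list of 5 or fewer), list genes without counts, and the 10 with the nearest profile, except where the text says that a gene was named after its values were seen. The alternatives were RLE factors, library totals, limma-voom (limma 3.58.1), DESeq2 1.42.0 (its Wald test), other filters, adjusted p alone, the replicate number as a block and each library left out. The Y-linked covariate and the division of counts by the most frequent low count were chosen after seeing the data. The values of some listed genes are not reported here.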

Additional observations from a re-analysis of the deposited data

How the results depend on the processing

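None of the 9 log2 fold changes changed sign under any of 15 alternatives. Of 135 such values 121 kept their side of the thresholds, 11 lost the call and 3, all of Cd22, gained it. The number of the 9 genes called, 8 in edgeR, was 4 under limma-voom, 7 under filterByExpr, and 8 under DESeq2, RLE factors, library totals, a filter of 1 count in any library and adjusted p alone. It was 9 with counts divided by the most frequent low count and with the Y-linked covariate, and 6 to 9 with 1 library left out (7 without PBS replicate 1, 6 without WGP replicate 1 or 3). Fcrla, called in 9 of 15 alternatives, and Pou2af1, in 12, were the least stable of the 8. Fcrla lost its call when PBS replicate 1 or any 1 WGP library was left out, and Pou2af1 when WGP replicate 1 or 3 was. Cd22 was called in 3 alternatives, among them the fit without PBS replicate 3. Leaving out 1 library moved the log2 ratio of the summed levels, -2.72 with all, from -3.14 to -1.51, the last without PBS replicate 1. Scaling by library totals moved the median log2 fold change of all genes from -0.05 to -0.16, and the 9 genes stayed negative. The number of all genes called was 1369, 1341 to 1705 under other settings that kept both thresholds and 1146 to 1396 with 1 library left out.

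Same-numbered PBS and WGP libraries showed little shared deviation over all genes (correlations of 0.0027, -0.0446 and 0.0105). The labels state no pairing, and these values cannot exclude one. With the replicate number as a block 8 of the 9 genes were called, as without it, and 1341 genes in all. Each of the 9 had a smaller SE in that fit (for Ms4a1 0.41, against 0.65). By adjusted p alone, more were called of the shared signalling genes (7, from 3) and of their inhibitors (3, from 1). The same held for the MHC class II genes (3, from 0) and the myeloid genes (6, from 2). It also held for the other lineage factors (6, from 5) and the close relatives (5, from 4). Each gain came from dropping the fold threshold. limma-voom called 3 of the 10 lineage factors (5 in edgeR), 0 of the 4 B-1 genes (1), 1 of the 11 T cell genes (2) and 1 of the 7 NK cell genes (3), and DESeq2 called 4 of the T cell genes. Ebf1, Blk and Fcrla had the fewest counts in the WGP libraries, and no alternative tested depth.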
